A study of Homo sapiens with 8 samples.

Results

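The BCL2 family genes that keep melanoma cells alive or push them towards death were followed by 10 members: BCL2, BCL2L1, MCL1 and BCL2A1, whose proteins favour survival, BCL2L11, BMF, BBC3, PMAIP1 and BID, whose proteins trigger death, and BAX, which carries it out. They were taken from a list by name. Each gene was represented by the probe set that carried its symbol alone and had the highest mean over the arrays, and each of the 10 had exactly 1 such probe set among 18404 genes tested. The cells were COLO829, an established human melanoma line with an activating BRAF mutation, and the arrays measured mRNA, not protein. All cells received a pGIPZ hairpin vector and were selected with puromycin for 2 days. Then, for 24 h, they were given PLX4032 (vemurafenib, an inhibitor of mutant BRAF) at 1 µM, or DMSO, its solvent.

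The 4 groups had 2 arrays each, labelled A and B. They were cells with the MITF hairpin under PLX4032, cells with the MITF hairpin in DMSO, cells with the scrambled hairpin under PLX4032, and cells with the scrambled hairpin in DMSO, below called knockdown and scrambled cells. MITF is the lineage transcription factor of melanocytes. A single hairpin against it is named in the labels, so no knockdown result was checked with a different hairpin. Whether A and B came from different cultures is not stated, and p-values here reflect only how far such arrays lay apart, a spread that may be technical. Only 1 treatment time was sampled, and in bulk RNA fewer cells of a type and less RNA per cell cannot be told apart. The comparisons ask how the family responded to BRAF inhibition, how it responded to less MITF, and whether the inhibitor acted differently when MITF was low.

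Survival proteins of this family hold the pore-forming effectors BAX and BAK1 in check at the outer mitochondrial membrane. BH3-only proteins such as BIM (from BCL2L11), BMF, PUMA (from BBC3), NOXA (from PMAIP1) and BID bind the survival proteins or the effectors, and an open pore lets cytochrome c out to switch on caspases. In melanoma cells ERK signalling is known to keep BIM and BMF low, and BCL2 and BCL2A1 have been described as genes that MITF binds.

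The DNA just upstream of 4 members is shown because these are the genes whose mRNA moved most, BMF, PMAIP1 and BCL2A1, together with BAX, whose promoter held the most matches to the motifs searched. Each sequence is the 250 bases before an annotated transcription start in RefSeq on GRCh38.p14, written 5′ to 3′ on the strand of the gene. Capitals mark matches, on either strand, to any of 6 motifs chosen with the promoters in view. These were CATGTG (the M-type E-box), CACGTG (the canonical E-box) and TGANTCA (AP-1, searched with any base at N). The others were TGACG (a CRE half-site), GTAAACA (FOXO) and GGAAGT (ETS). The regions are chr15:79971197-79971446 on the minus strand for BCL2A1, chr15:40108880-40109129 on the minus strand for BMF (the first of its 2 starts), chr18:59899746-59899995 on the plus strand for PMAIP1 and chr19:48954625-48954874 on the plus strand for BAX.
BCL2A1: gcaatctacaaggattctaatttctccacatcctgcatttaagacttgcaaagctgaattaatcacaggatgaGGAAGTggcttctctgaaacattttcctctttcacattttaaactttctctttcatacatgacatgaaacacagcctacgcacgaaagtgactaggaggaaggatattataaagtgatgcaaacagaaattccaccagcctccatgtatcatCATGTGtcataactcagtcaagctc
BMF: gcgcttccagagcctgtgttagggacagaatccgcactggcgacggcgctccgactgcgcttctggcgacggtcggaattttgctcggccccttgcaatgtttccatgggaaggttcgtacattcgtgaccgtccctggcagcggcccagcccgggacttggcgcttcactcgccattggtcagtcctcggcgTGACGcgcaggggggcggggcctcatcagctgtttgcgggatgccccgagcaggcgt
PMAIP1: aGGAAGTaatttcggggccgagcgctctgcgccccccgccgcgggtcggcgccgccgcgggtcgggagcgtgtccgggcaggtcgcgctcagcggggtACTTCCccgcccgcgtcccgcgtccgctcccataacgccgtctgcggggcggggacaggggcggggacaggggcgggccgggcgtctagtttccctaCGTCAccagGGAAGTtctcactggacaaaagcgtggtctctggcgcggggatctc
BAX: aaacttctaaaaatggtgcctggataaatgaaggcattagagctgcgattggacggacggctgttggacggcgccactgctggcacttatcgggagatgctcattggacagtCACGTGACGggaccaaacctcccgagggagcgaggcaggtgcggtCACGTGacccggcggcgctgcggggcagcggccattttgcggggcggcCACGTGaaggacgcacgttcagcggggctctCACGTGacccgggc

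BCL2A1 held CATGTG with its first base at -25 and GGAAGT at -177. BAX held CACGTG at 4 places, -138, -93, -45 and -14, and a TGACG at -134 that overlaps the first of them. PMAIP1 held the ETS motif at -249, -152 and -46 and the CRE half-site, read on the other strand, at -55, while BMF held TGACG at -57 at its first start and the ETS motif at -18 at its second. Among the other members with an entry, BCL2L11 held GTAAACA at -223 and BBC3 held CACGTG at -232 and TGAGTCA at -113. BCL2 held the CRE half-site at -225 and BCL2L1 at -201 at its first start, and at 3 of its 5 starts BID held 1 E-box each. Over all 35116 RefSeq windows of this length, CATGTG occurred in 9.42%, CACGTG in 6.34%, TGANTCA in 6.57%, TGACG in 21.2%, GTAAACA in 2.98% and GGAAGT in 19.5%. These matches are letters in a window, and no binding was measured. MCL1 is named only.

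**Figure D1:**
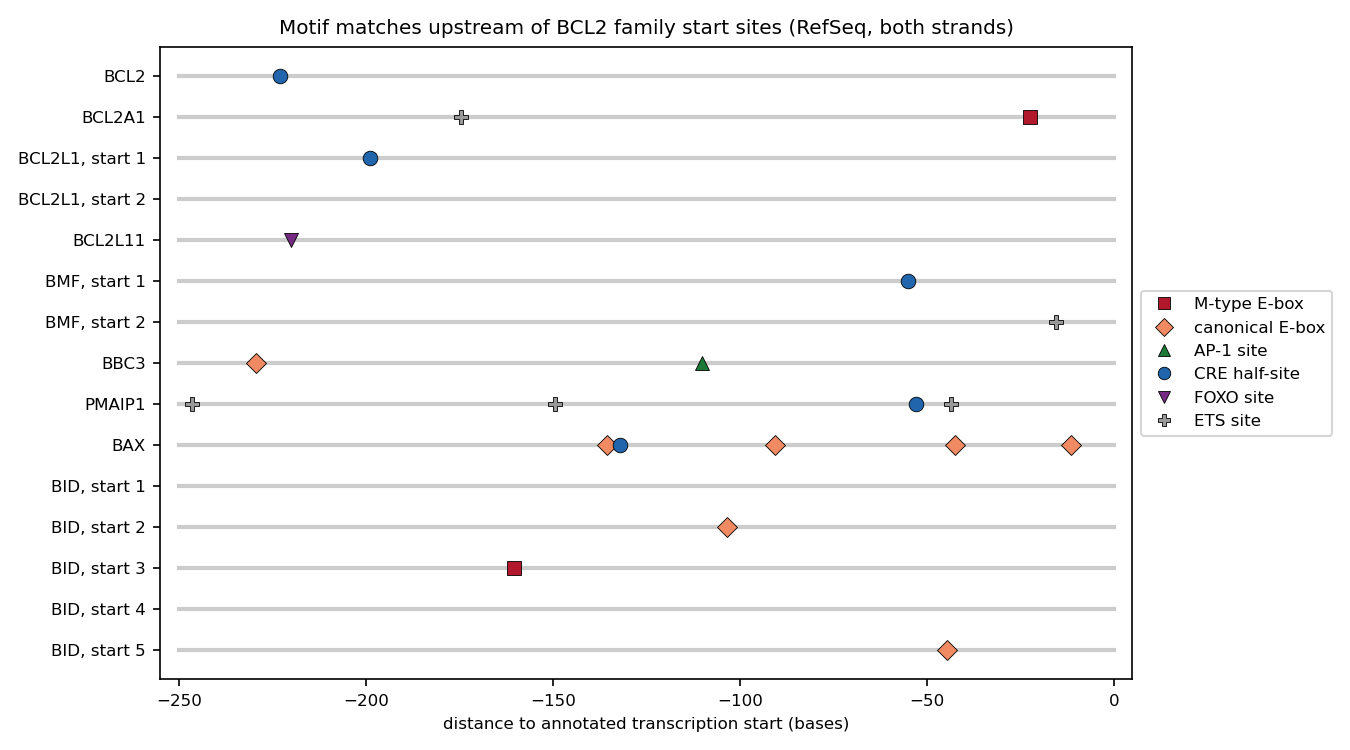
Matches to the 6 motifs (symbols) in the 250 bases upstream of 15 annotated start sites (grey lines) of 9 members, with the distance to the start in bases on the x axis. BAX carries 4 canonical E-boxes and BCL2A1 the M-type E-box nearest to a start, at -25.

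The checks of the hairpin and the inhibitor came out as follows. MITF read 10.07 and 10.08 in knockdown cells under PLX4032, against 10.88 and 10.80 in scrambled cells under PLX4032, and 9.57 and 9.47 in knockdown cells in DMSO, against 10.44 and 10.46 in scrambled cells in DMSO. Its change on knockdown was -0.76 ± 0.080 under PLX4032 and -0.93 ± 0.080 in DMSO, so MITF mRNA was reduced and not removed. PLX4032 itself raised MITF, by 0.56 ± 0.080 in knockdown cells and 0.39 ± 0.080 in scrambled cells. With both perturbations MITF therefore differed from scrambled cells in DMSO by only -0.38 ± 0.080. DUSP6, an ERK phosphatase gene that follows ERK activity, changed under PLX4032 by -2.55 ± 0.084 in knockdown cells and -2.68 ± 0.084 in scrambled cells. On knockdown DUSP6 rose, by 0.59 ± 0.084 under PLX4032 (limma adjusted p = 0.000292) and 0.46 ± 0.084 in DMSO (adjusted p = 0.00176). The part of this rise in the results below was not tested. Arrays of the same group correlated at 0.997 to 0.998 across genes. Of 7 melanocyte markers measured, 6 lay above the median gene, and their summed log2 level ran from 72.07 to 72.09 in knockdown cells under PLX4032, 64.96 to 65.27 in knockdown cells in DMSO, 76.34 to 77.58 in scrambled cells under PLX4032 and 70.19 to 70.45 in scrambled cells in DMSO. MITF, the target of the hairpin, is 1 of these markers and is part of the sums. Of the markers 6 rose under PLX4032 in both kinds of cell. On knockdown 4 fell in both treatments, PMEL, MLANA, TYRP1 and MITF itself, and 1, S100B, rose in both. TYR and SOX10 were not called on knockdown. The part of these markers in the results below was not tested. The leukocyte marker PTPRC lay at the 2.79th percentile of genes, but CD68 of the same list at the 95.7th. The fibroblast marker LUM lay at the 86.8th. Under PLX4032 in scrambled cells CD68 rose by 0.46 and LUM by 0.42, and on knockdown in DMSO by 0.28 and 0.39. None of 4 keratinocyte or 3 endothelial markers, and 1 of 5 leukocyte and 1 of 6 fibroblast markers, lay above the median gene. The summed level of the fibroblast markers ran from 34.96 to 35.36 in knockdown cells under PLX4032, against 32.97 to 33.38 in scrambled cells in DMSO, and 4 of the 6 rose between those groups. Its part was not tested either.

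Under PLX4032 the family moved in both directions. In knockdown cells BCL2, BMF and BAX rose and BCL2A1, MCL1 and PMAIP1 fell, 6 of 10 genes, while 33.7% of all genes were called in that comparison (18.6% up and 15.1% down). In scrambled cells BCL2A1, BCL2L11 and BMF rose and MCL1 and PMAIP1 fell, 5 of 10, beside 34.1% of all genes (17.3% up and 16.8% down). A gene counts as called here when its adjusted p, from limma with Benjamini-Hochberg adjustment over all 18404 genes, is below 0.05, and only a called gene is said to have risen or fallen. The median change of the 10 members was -0.13 in knockdown cells, where that of all genes was 0.04, and 0.09 in scrambled cells, where that of all genes was 0.05.

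MITF knockdown also split the family. Under PLX4032 BCL2, MCL1, BCL2L11 and BMF rose and BCL2A1, BCL2L1, PMAIP1 and BID fell, 8 of 10, beside 28.5% of all genes (13.5% up and 15% down). In DMSO MCL1, BCL2L11 and BBC3 rose and BCL2L1, BAX and BID fell, 6 of 10, beside 33.2% of all genes (14.4% up and 18.8% down), and without scrambled DMSO array B 3 of 10 were called, beside 4106 of the 18404 genes. With both perturbations together, set against scrambled cells in DMSO, BCL2, BCL2L11, BMF and BBC3 rose and BCL2A1, BCL2L1, PMAIP1 and BID fell, 8 of 10, beside 48.6% of all genes (27.1% up and 21.5% down). The members' median change was 0.14 on knockdown under PLX4032, -0.26 on knockdown in DMSO and 0.05 with both perturbations, where all genes had medians of 0.02, 0.02 and 0.08. These shares were not tested against the rest of the genes, since the members were chosen by name, with results of these data known.

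**Figure D2:**
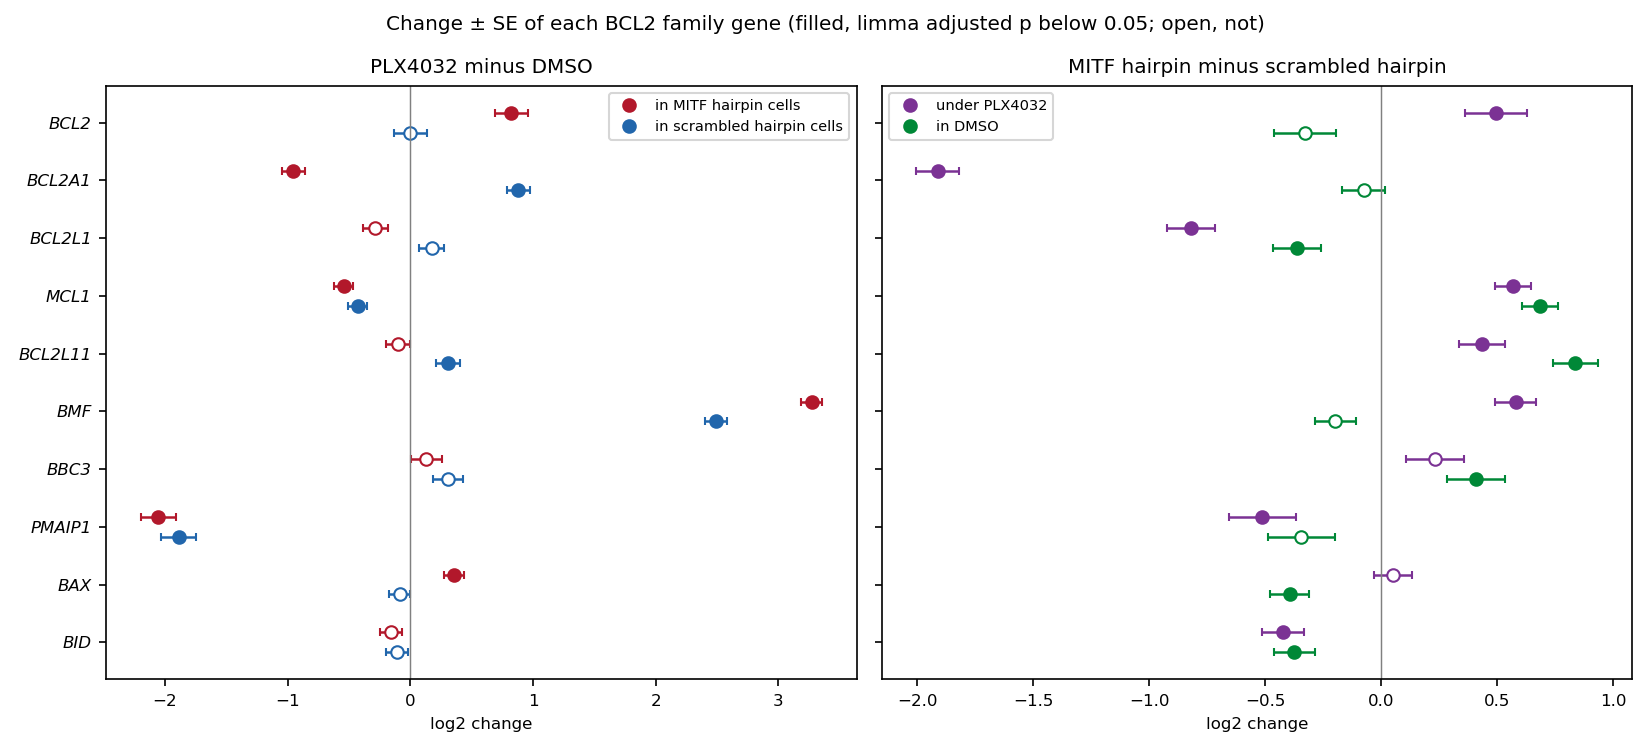
Log2 change ± SE (x axis) of each of the 10 genes, from the limma fit over 8 arrays (filled symbols, adjusted p below 0.05). Left, PLX4032 minus DMSO in knockdown cells (red) and scrambled cells (blue), and right, MITF hairpin minus scrambled hairpin under PLX4032 (purple) and in DMSO (green). BMF and PMAIP1 lie far from 0 on the left in both kinds of cell, and BCL2A1 lies on opposite sides of 0.

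Among the survival genes BCL2A1, whose protein binds BH3-only proteins much as MCL1 does, gave the largest difference between its responses to PLX4032 of all 10 members. It read 7.72 and 7.71 in knockdown cells under PLX4032, 8.68 and 8.66 in knockdown cells in DMSO, 9.58 and 9.68 in scrambled cells under PLX4032, and 8.63 and 8.86 in scrambled cells in DMSO. The doubly perturbed arrays were the lowest and the scrambled PLX4032 arrays the highest, with no overlap between either pair and any other group, while the DMSO groups overlapped. PLX4032 changed it by -0.95 ± 0.093 in knockdown cells (1.94-fold lower, limma adjusted p = 1.3e-05) and by 0.88 ± 0.093 in scrambled cells (1.84-fold higher, adjusted p = 2.94e-05). The difference between these responses was -1.84 ± 0.13 (95% interval -2.13 to -1.54, adjusted p = 1.09e-05). Knockdown lowered BCL2A1 3.76-fold under PLX4032 (-1.91, adjusted p = 8.68e-08). In DMSO the change on knockdown was -0.08, with an interval of -0.28 to 0.13 and an adjusted p of 0.569. Cells with both perturbations lay 2.04-fold below scrambled cells in DMSO (-1.03, adjusted p = 4.49e-06).

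BCL2, the founding survival gene, was highest where both perturbations met. It read 7.07 and 7.12 in knockdown cells under PLX4032, 6.49 and 6.06 in knockdown cells in DMSO, 6.47 and 6.74 in scrambled cells under PLX4032, and 6.62 and 6.58 in scrambled cells in DMSO. The doubly perturbed arrays lay above all 6 others. The scrambled groups overlapped, as did the knockdown DMSO and scrambled PLX4032 groups. PLX4032 raised BCL2 by 0.82 ± 0.13 in knockdown cells (1.77-fold, adjusted p = 0.000555), whereas in scrambled cells the change was 0.00 with an interval of -0.29 to 0.30. The difference between the responses was 0.82 ± 0.19 (adjusted p = 0.0166), but it was 0.61 without knockdown DMSO array B and 0.69 without scrambled PLX4032 array A, with adjusted p of 0.058 and 0.0832. On knockdown BCL2 rose under PLX4032 (0.49 ± 0.13, adjusted p = 0.0173), a call that ended without knockdown PLX4032 array B (0.47) or scrambled PLX4032 array A (0.36). BCL2 also lost this call when every probe set was tested. In DMSO its change was -0.33 ± 0.13 (adjusted p = 0.082), and -0.55 without knockdown DMSO array A (adjusted p = 0.0127), and it was also called without the dimmest 40% of genes. With both perturbations it lay 0.49 ± 0.13 above scrambled cells in DMSO (adjusted p = 0.0103).

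BCL2L1, which encodes BCL-XL, fell on knockdown. It read 9.16 and 9.40 in knockdown cells under PLX4032, against 10.21 and 10.00 in scrambled cells under PLX4032, and 9.58 and 9.55 in knockdown cells in DMSO, against 9.90 and 9.96 in scrambled cells in DMSO. Every knockdown array lay below every scrambled array. The fall was 1.77-fold under PLX4032 (-0.82 ± 0.10, adjusted p = 0.000124) and 1.29-fold in DMSO (-0.36 ± 0.10, adjusted p = 0.0205), and the DMSO call ended without knockdown DMSO array A (-0.38), knockdown DMSO array B (-0.34) or scrambled DMSO array B (-0.33). When every probe set was tested the DMSO call was also lost. The change under PLX4032 was -0.28 ± 0.10 in knockdown cells (adjusted p = 0.056) and 0.17 ± 0.10 in scrambled cells (adjusted p = 0.231). Their difference of -0.46 ± 0.15 had an adjusted p of 0.071, and both the change in knockdown cells (-0.41) and the difference (-0.58) were called without knockdown PLX4032 array B. Both were also called without the dimmest 40% of genes, after repeated quantile normalization, after centring arrays on the median and with an intensity trend, with adjusted p down to 0.0134 for the change and 0.0143 for the difference. With both perturbations BCL2L1 lay 1.57-fold below scrambled cells in DMSO (-0.65, adjusted p = 0.000362).

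MCL1, which encodes a short-lived survival protein, moved in opposite directions under the hairpin and the inhibitor. It read 10.44 and 10.51 in knockdown cells under PLX4032, 11.03 and 11.01 in knockdown cells in DMSO, 9.91 and 9.90 in scrambled cells under PLX4032, and 10.32 and 10.36 in scrambled cells in DMSO. The knockdown DMSO arrays were highest and the scrambled PLX4032 arrays lowest, and no groups overlapped. PLX4032 lowered it 1.46-fold in knockdown cells (-0.54 ± 0.077, adjusted p = 0.000215) and 1.35-fold in scrambled cells (-0.43 ± 0.077, adjusted p = 0.00124). Knockdown raised it 1.48-fold under PLX4032 (0.57, adjusted p = 0.000214) and 1.60-fold in DMSO (0.68, adjusted p = 6.13e-05). With both perturbations the difference from scrambled cells in DMSO was 0.14, with an interval of -0.03 to 0.31, and it was called after repeated quantile normalization (0.18, adjusted p = 0.0489). The responses to PLX4032 differed by -0.11, with an interval of -0.35 to 0.13.

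Of the BH3-only genes BMF changed most. It encodes a protein that is held at the cytoskeleton by dynein light chains. BMF read 9.69 and 9.63 in knockdown cells under PLX4032, 6.47 and 6.30 in knockdown cells in DMSO, 9.02 and 9.13 in scrambled cells under PLX4032, and 6.59 and 6.58 in scrambled cells in DMSO. All PLX4032 arrays lay above all DMSO arrays, and within PLX4032 the knockdown arrays were the higher. The rise was 9.66-fold in knockdown cells (3.27 ± 0.088, adjusted p = 1.87e-09) and 5.64-fold in scrambled cells (2.49 ± 0.088, adjusted p = 1.51e-08), and the difference between them was 0.78 ± 0.12 (95% interval 0.50 to 1.05, adjusted p = 0.00203). Knockdown raised BMF 1.49-fold under PLX4032 (0.58, adjusted p = 0.000484), and in DMSO its change was -0.20 (adjusted p = 0.109). With both perturbations it stood 8.42-fold above scrambled cells in DMSO (3.07, adjusted p = 1.9e-09).

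PMAIP1, which encodes NOXA, a partner of MCL1 and BCL2A1 proteins, went the other way. It read 4.96 and 5.43 in knockdown cells under PLX4032, 7.24 and 7.26 in knockdown cells in DMSO, 5.78 and 5.64 in scrambled cells under PLX4032, and 7.45 and 7.74 in scrambled cells in DMSO. Every PLX4032 array lay below every DMSO array. The fall under PLX4032 was 4.16-fold in knockdown cells (-2.06 ± 0.14, adjusted p = 9.76e-07) and 3.70-fold in scrambled cells (-1.89 ± 0.14, adjusted p = 2.66e-06). These falls differed by -0.17, with an interval of -0.62 to 0.28. The PLX4032 levels are low on this scale and their signal over background is unknown. Changes of dim probe sets come out too small, so the falls and their difference may be understated. The change on knockdown was -0.51 ± 0.14 under PLX4032 (adjusted p = 0.0204), a call that ended without knockdown PLX4032 array A (-0.28) or either scrambled PLX4032 array (-0.44 without A and -0.58 without B). In DMSO it was -0.35 ± 0.14 (adjusted p = 0.0895), and it was called without either knockdown PLX4032 array (-0.35) or without scrambled DMSO array A (-0.49), and when only the arrays compared were fitted. With both perturbations PMAIP1 was 5.28-fold below scrambled cells in DMSO (-2.40, adjusted p = 1.74e-07).

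BCL2L11, which encodes BIM, a strong activator of BAX and BAK1, was higher on knockdown in both treatments. It read 7.65 and 7.77 in knockdown cells under PLX4032, against 7.27 and 7.28 in scrambled cells under PLX4032, and 7.84 and 7.78 in knockdown cells in DMSO, against 6.85 and 7.10 in scrambled cells in DMSO. All knockdown arrays lay above all scrambled arrays. Knockdown raised it 1.78-fold in DMSO (0.84 ± 0.098, adjusted p = 7.65e-05) and 1.35-fold under PLX4032 (0.43, adjusted p = 0.00626). PLX4032 changed it by -0.10 in knockdown cells (interval -0.31 to 0.12) and by 0.31 in scrambled cells (adjusted p = 0.0327). That last call ended without either knockdown DMSO array (0.31), either scrambled PLX4032 array (0.31 without A and 0.30 without B) or scrambled DMSO array A (0.18). Testing every probe set also ended it. The responses to PLX4032 differed by -0.40 ± 0.14 (adjusted p = 0.091), a difference that was called without scrambled DMSO array B (-0.53, adjusted p = 0.0315), without the dimmest 40% of genes and after repeated quantile normalization. With both perturbations BCL2L11 lay 1.67-fold above scrambled cells in DMSO (0.74, adjusted p = 8.64e-05).

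BBC3, which encodes PUMA, spanned 0.54 between its group means. It read 7.10 and 6.76 in knockdown cells under PLX4032, 6.70 and 6.91 in knockdown cells in DMSO, 6.71 and 6.70 in scrambled cells under PLX4032, and 6.51 and 6.29 in scrambled cells in DMSO. The scrambled DMSO arrays were the lowest, and the knockdown DMSO group overlapped both the knockdown PLX4032 and the scrambled PLX4032 group. BBC3 rose with both perturbations (0.54 ± 0.12, 1.45-fold, adjusted p = 0.00432) and on knockdown in DMSO (0.41, adjusted p = 0.0277), a call that ended without knockdown DMSO array B (0.30) or scrambled DMSO array B (0.30). Repeated quantile normalization, or testing every probe set, also ended this DMSO call. On knockdown under PLX4032 the change was 0.23 (adjusted p = 0.207), and 0.40 without knockdown PLX4032 array B (adjusted p = 0.0393). Under PLX4032 it changed by 0.13 in knockdown cells and 0.31 in scrambled cells, with adjusted p of 0.495 and 0.0811. In scrambled cells the change was called without either knockdown PLX4032 array (0.31) or without scrambled DMSO array A (0.42), without the dimmest 40% of genes and when only the arrays compared were fitted. The responses differed by -0.18, with an interval of -0.57 to 0.21.

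BID, which links death receptors to the mitochondrial pathway once a caspase has cut its protein, was lower on knockdown. It read 7.76 and 7.85 in knockdown cells under PLX4032, against 8.31 and 8.15 in scrambled cells under PLX4032, and 7.932 and 7.997 in knockdown cells in DMSO, against 8.28 and 8.40 in scrambled cells in DMSO. All knockdown arrays lay below all scrambled arrays. The fall was -0.42 ± 0.090 under PLX4032 (adjusted p = 0.00437) and -0.37 ± 0.090 in DMSO (adjusted p = 0.00847), and the DMSO call ended without knockdown DMSO array A (-0.34) or scrambled DMSO array B (-0.32). PLX4032 changed it by -0.16 in knockdown cells and -0.11 in scrambled cells, with intervals of -0.35 to 0.04 and -0.31 to 0.09. With both perturbations BID lay 1.44-fold below scrambled cells in DMSO (-0.53, adjusted p = 0.00055).

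BAX, the effector, spanned the narrowest range of group means of the 10, 0.40. It read 10.04 and 9.90 in knockdown cells under PLX4032, 9.66 and 9.57 in knockdown cells in DMSO, 9.93 and 9.91 in scrambled cells under PLX4032, and 10.01 and 10.00 in scrambled cells in DMSO. Only the knockdown DMSO arrays stood apart, below the 6 others. BAX fell on knockdown in DMSO (-0.40 ± 0.083, 1.32-fold, adjusted p = 0.00406), and on knockdown under PLX4032 its change was 0.05, with an interval of -0.13 to 0.23. PLX4032 raised it in knockdown cells (0.36 ± 0.083, adjusted p = 0.0058), a call that ended without knockdown DMSO array B (0.31) or knockdown PLX4032 array A (0.29), and changed it by -0.09 in scrambled cells (interval -0.27 to 0.10). The difference between these responses was 0.45 ± 0.12 (adjusted p = 0.0324), and it was called without knockdown PLX4032 array B but lost its call without any of the other 7, where it ran from 0.38 to 0.49 with adjusted p of 0.0633 to 0.138. With both perturbations BAX differed from scrambled cells in DMSO by -0.04 (interval -0.22 to 0.15).

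**Figure D3:**
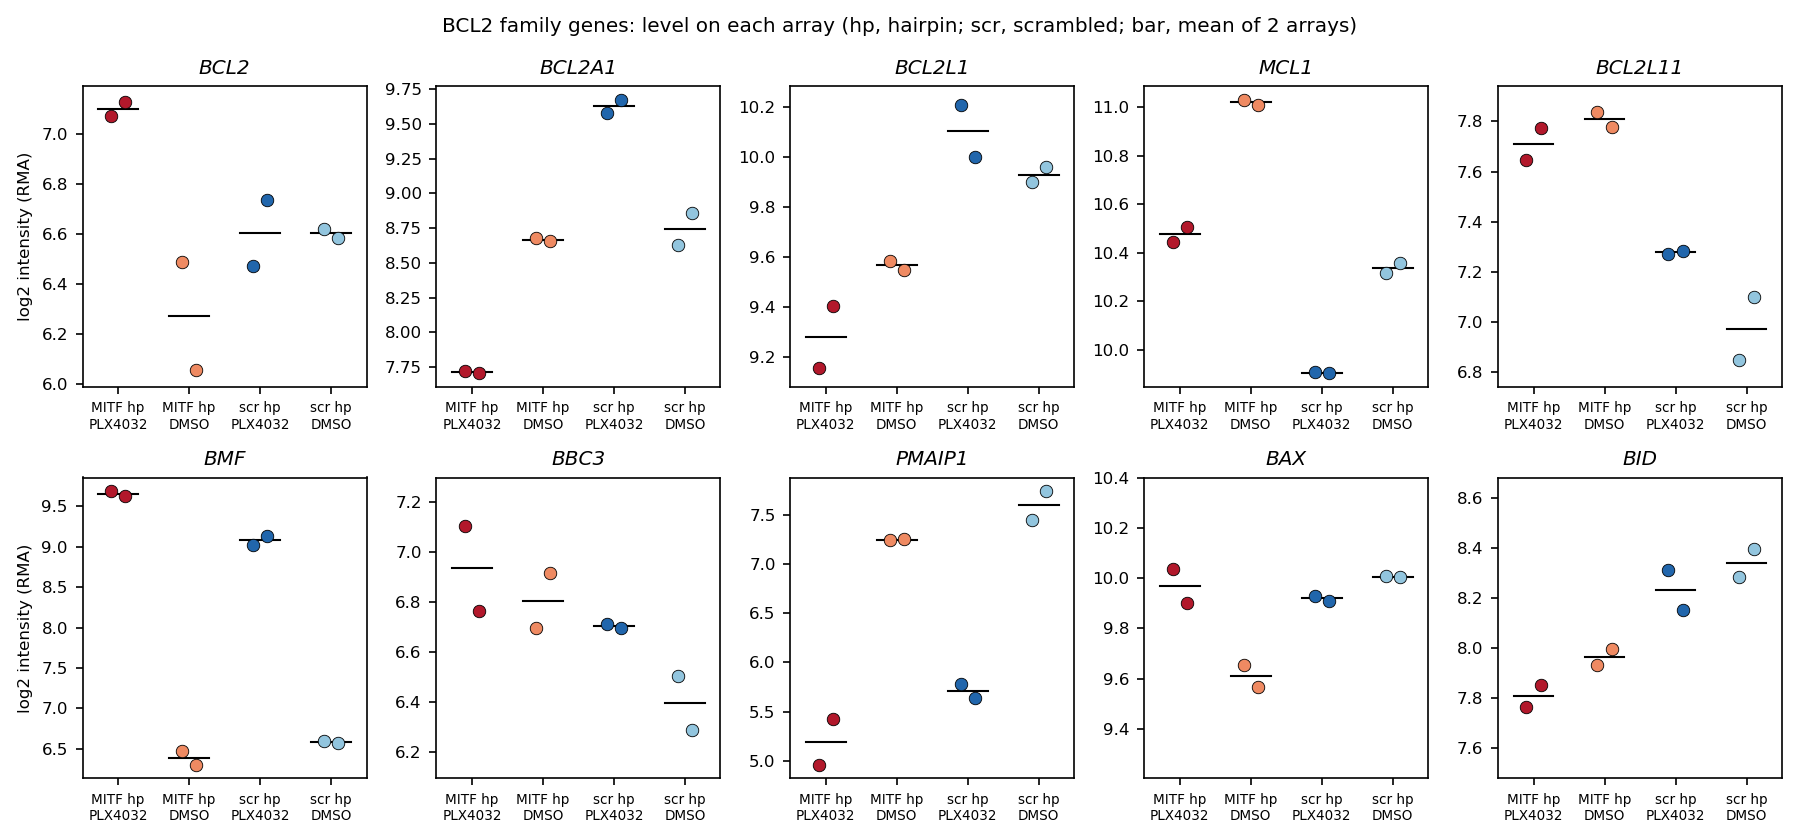
Level of each of the 10 genes as log2 RMA intensity (y axis, own scale in each panel) on the 2 arrays of each group (points, with the mean as a bar). BMF is high and PMAIP1 low on all 4 PLX4032 arrays, and BCL2A1 is lowest on the knockdown PLX4032 arrays, at 7.72 and 7.71.

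The responses to PLX4032 in knockdown and scrambled cells were called different for 4 of the 10 genes, BCL2, BMF and BAX with a more positive change in knockdown cells and BCL2A1 with a more negative one, beside 11.8% of all genes (6.97% more positive and 4.85% more negative). 2 of 10 were called without knockdown DMSO array B, beside 1278 of the 18404 genes, and 2 of 10 without scrambled PLX4032 array A, beside 1431 genes. Among the survival genes 1 difference was positive, 1 negative and 2 not called, and among the 5 BH3-only genes BMF alone was called. The group means of the 10 members spanned 0.40 to 3.27 log2 units, widest in BMF, PMAIP1 (2.40) and BCL2A1 (1.91).

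The genes most like these 3 across the 8 arrays were looked up among 2590 genes whose group means spanned at least 1 log2 unit, by Pearson's correlation given as a description. BMF was followed most closely by P2RX7 (r = 0.9983), CERT1 (0.997) and SNN (0.9969). P2RX7 averaged 11.49 in knockdown cells under PLX4032, 9.08 in knockdown cells in DMSO, 11.12 in scrambled cells under PLX4032 and 9.18 in scrambled cells in DMSO. PMAIP1 was most like GBE1 (0.9953), SAAL1 (0.9951) and NOLC1 (0.9948), and BCL2A1 most like CTH (0.9871), SLC45A2 (0.9758) and AFF3 (0.9709). SLC45A2, which encodes a melanosomal transporter, averaged 6.76 in knockdown cells under PLX4032, 8.43 in knockdown cells in DMSO, 9.52 in scrambled cells under PLX4032 and 8.70 in scrambled cells in DMSO. The 8 points of each correlation fall into the same 4 groups, and nothing about shared function or control was measured.

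The rest of the pathway was read in 6 lists, of which other BCL2 family genes came first, 11 measured of 12. The counts of called genes in these lists stand beside the shares of all genes given above, 33.7% under PLX4032 in knockdown cells, 34.1% in scrambled cells, 28.5% on knockdown under PLX4032, 33.2% in DMSO and 48.6% with both perturbations, and no list was tested against them. Under PLX4032 1 rose and 2 fell in knockdown cells, and 2 rose and 1 fell in scrambled cells. BNIP3, a mitochondrial BH3-like gene known for its response to low oxygen, fell 2.39-fold in knockdown cells (-1.26 ± 0.083, adjusted p = 6e-07) and 2.35-fold in scrambled cells (-1.23 ± 0.083, adjusted p = 1.08e-06). On knockdown 0 rose and 3 fell under PLX4032, and 0 rose and 1 fell in DMSO. BAK1, the other effector, fell on knockdown under PLX4032 (-0.60 ± 0.097, adjusted p = 0.000723). HRK, a BH3-only gene, fell on knockdown in DMSO (-0.68 ± 0.084, adjusted p = 0.000114) and on knockdown under PLX4032 (-0.44). With both perturbations 2 rose and 3 fell, with a list median of 0.04 beside 0.08 for all genes.

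Downstream of the mitochondria, 6 of 8 apoptosome and caspase genes were measured. CASP9, the initiator caspase of the apoptosome, rose on knockdown by 0.52 ± 0.11 under PLX4032 and by 1.17 ± 0.11 in DMSO (adjusted p = 0.00403 and 1.44e-05). CASP6 fell on knockdown in DMSO (-0.97 ± 0.13, adjusted p = 0.000171) and rose under PLX4032 in knockdown cells (0.75 ± 0.13, adjusted p = 0.000718). CYCS, which encodes cytochrome c, fell under PLX4032 in knockdown cells (-0.60 ± 0.077) and on knockdown under PLX4032 (-0.56 ± 0.077). In this list 2 rose and 2 fell under PLX4032 in knockdown cells, 0 and 1 in scrambled cells, 1 and 2 on knockdown in either treatment, and 1 and 2 with both perturbations (median -0.10). Of the inhibitors of apoptosis 5 of 6 were measured, and BIRC5 (survivin) and BIRC7 (livin, a melanoma inhibitor of apoptosis) fell in all 5 comparisons. With both perturbations BIRC5 changed by -1.06 ± 0.087 (2.09-fold, adjusted p = 1.97e-06) and BIRC7 by -0.97 ± 0.093 (1.96-fold, adjusted p = 7.1e-06). With the mean of its probe sets in place of the brightest, BIRC5 changed by -0.62 with both perturbations and by -0.28 under PLX4032 in knockdown cells, where the call was lost (adjusted p = 0.0619). On knockdown under PLX4032 BIRC5 read 7.82 and 7.67 against 8.06 and 8.07 in scrambled cells. That fall was not checked with the mean of probe sets or by leaving out arrays. BIRC7 lost its call on knockdown under PLX4032 without scrambled PLX4032 array B (-0.37) and under PLX4032 in knockdown cells without knockdown DMSO array A (-0.34). BIRC2 rose on knockdown in DMSO (0.61 ± 0.086, adjusted p = 0.000286). This list had 0 up and 2 down under PLX4032 in both kinds of cell, 2 and 2 on knockdown under PLX4032, 1 and 2 on knockdown in DMSO, and 2 and 2 with both perturbations (median 0.02).

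Of the death receptor pathway 9 of 10 genes were measured. The adaptor gene TRADD (0.82 ± 0.090, adjusted p = 3.9e-05) and the receptor gene FAS (0.67 ± 0.11, adjusted p = 0.000871) rose under PLX4032 in scrambled cells. In knockdown cells they were also called, TRADD at 0.38 (adjusted p = 0.00678) and FAS at 0.35 (adjusted p = 0.0347). There the TRADD call ended without knockdown DMSO array A (0.35) or knockdown PLX4032 array A (0.31), and the FAS call without any of 5 arrays, at 0.29 to 0.41, the exceptions being knockdown PLX4032 array A and both scrambled DMSO arrays. CFLAR, an inhibitor of caspase 8, rose in knockdown cells (0.61 ± 0.14, adjusted p = 0.00433), and by 1.27 with the mean of its probe sets. In scrambled cells it rose by 0.44 (adjusted p = 0.0277), and by 0.88 with the mean of its probe sets, but that call ended without scrambled DMSO array A (0.23) or either scrambled PLX4032 array (0.46 without A and 0.42 without B). The receptor genes TNFRSF1A (0.82 ± 0.080, adjusted p = 1.86e-05) and TNFRSF10B (0.67 ± 0.081, adjusted p = 8.98e-05) rose on knockdown under PLX4032, and also in DMSO, by 0.54 and 0.38. In all, 3 rose and 1 fell under PLX4032 in knockdown cells, 3 and 2 in scrambled cells, 2 and 1 on knockdown in either treatment, and 5 and 1 with both perturbations, where the list median was 0.46 beside 0.08 for all genes.

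Of the transcription factors known to act on BCL2 family genes 11 of 12 were measured, MITF included. JUN, an AP-1 subunit, rose 8.12-fold under PLX4032 in knockdown cells (3.02 ± 0.094, adjusted p = 3.46e-09) and 4.88-fold in scrambled cells (2.29), and with both perturbations it stood 19.1-fold above scrambled cells in DMSO (4.26 ± 0.094, adjusted p = 3.32e-10). FOXO4 rose by 1.21 ± 0.098 in knockdown cells and 0.74 ± 0.098 in scrambled cells under PLX4032, and E2F1 fell by 1.01 in knockdown cells and 0.86 in scrambled cells. NFKB1 rose on knockdown, by 0.93 ± 0.094 under PLX4032 and 1.07 ± 0.094 in DMSO. In this list 5 rose and 1 fell under PLX4032 in knockdown cells, 4 and 3 in scrambled cells, 5 and 2 on knockdown under PLX4032, 4 and 2 in DMSO, and 5 and 3 with both perturbations (median 0.29).

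**Figure D4:**
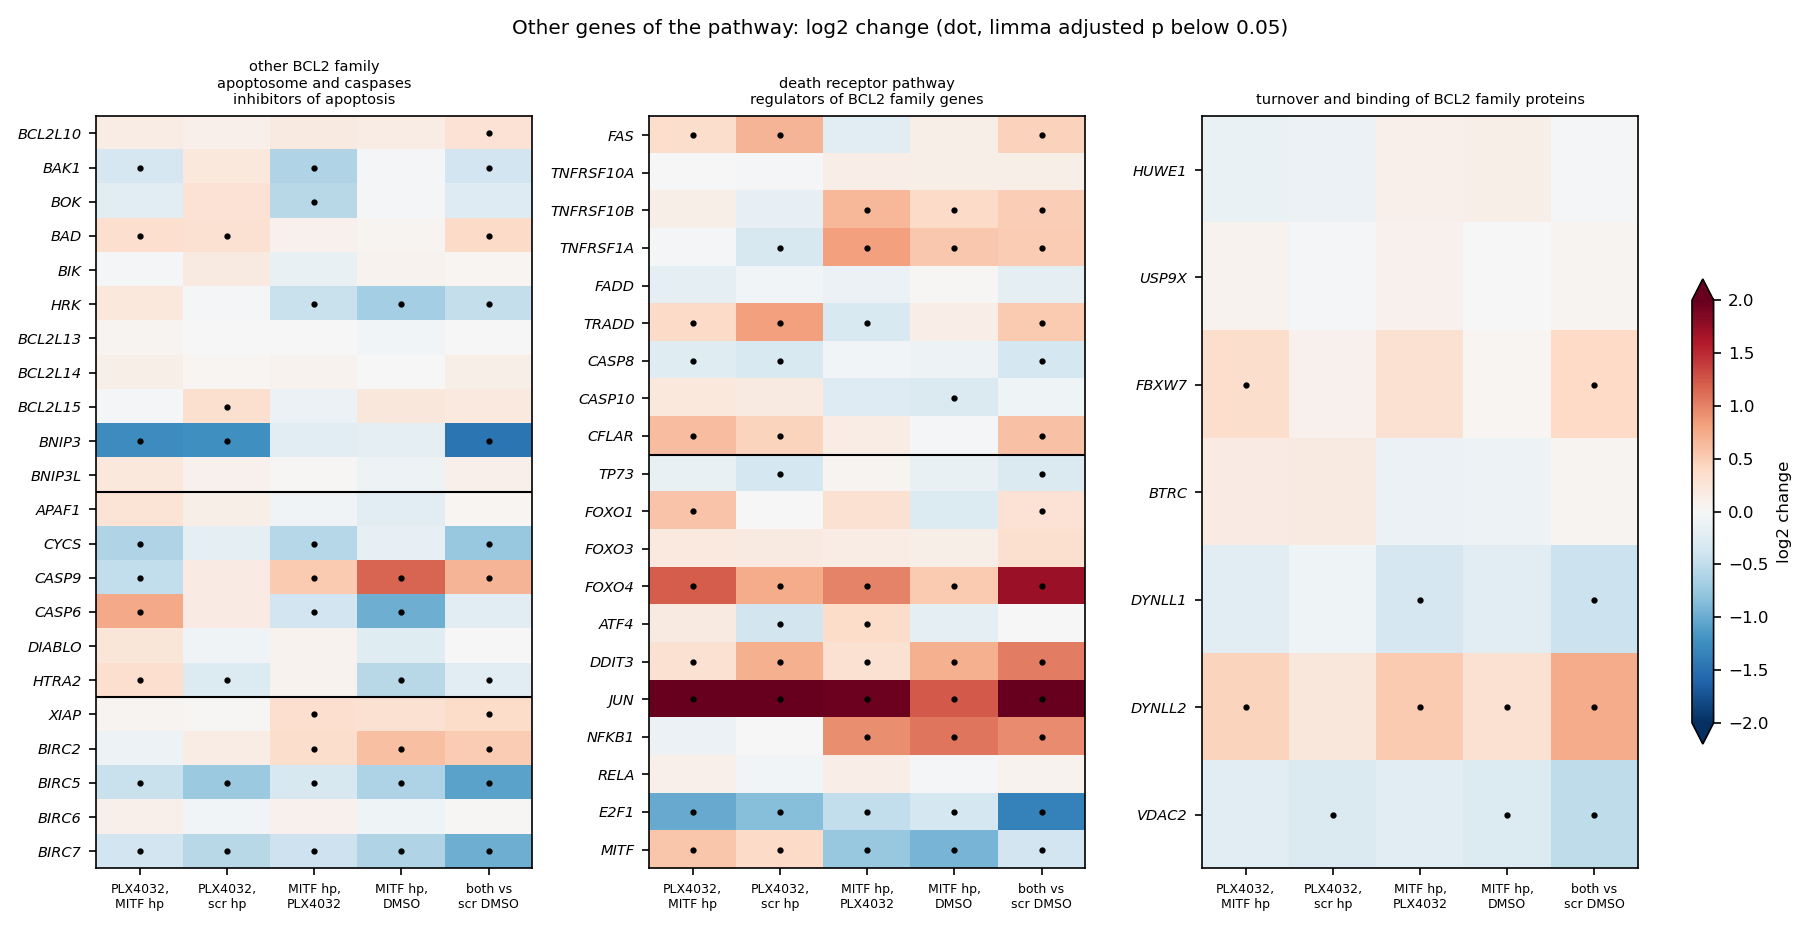
Log2 change (colour, clipped at 2 log2 units in either direction) of each gene of the 6 lists (y axis, lists split by black lines in the order of the titles) in the 5 comparisons (x axis; hp, hairpin; scr, scrambled), with a dot where the limma adjusted p is below 0.05. JUN is red in all 5 columns, and BIRC5, BIRC7 and E2F1 are blue in all 5.

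Genes for the turnover and binding of BCL2 family proteins were all measured, 7 of 7. DYNLL2, the dynein light chain gene whose protein binds BMF, rose by 0.74 ± 0.084 with both perturbations (1.67-fold, adjusted p = 2.55e-05), by 0.44 under PLX4032 in knockdown cells and by 0.52 on knockdown under PLX4032. DYNLL1, the other dynein light chain gene, fell by 0.43 with both perturbations (adjusted p = 0.00334) and by 0.34 on knockdown under PLX4032 (adjusted p = 0.0205), where the call ended without any of the 4 PLX4032 arrays, at -0.36 to -0.32. VDAC2, an outer membrane channel that binds BAK1 protein, fell by 0.50 with both perturbations (adjusted p = 0.000505). In this list 2 rose and 0 fell under PLX4032 in knockdown cells, 0 and 1 in scrambled cells, 1 and 1 on knockdown in either treatment, and 2 and 2 with both perturbations (median 0.05).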

How the data were processed

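RNA from 8 samples was measured on 1 array each, and the authors deposited log2 intensities per probe set, made with RMA (background correction, quantile normalization and probe summary) per the submitters' processing notes, with no version named. RMA sets all arrays to the same distribution, so a shift shared by most genes is lost, and changes of dim probe sets come out too small. The probe set annotation the authors used is not given in the sources used here. Of 32321 probe sets, 19158 carried 1 symbol in the platform annotation, 1388 several and 11775 none. The probe set with the highest mean stood for each of 18404 genes, with no filter on dim genes. All 10 members matched RefSeq by Entrez identifier. Probes were not checked for cross-hybridisation with near-identical genes, and without detection calls the signal over background is unknown. Precision is limited by the number of arrays, with a median SE of 0.0939 for a change and 0.133 for a difference between responses.

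limma 3.58.1 (lmFit and eBayes, R 4.3.3) fitted a mean per group over all 8 arrays, with 4 residual and 6.73 prior degrees of freedom, and 6 two-sided contrasts were adjusted by Benjamini-Hochberg over 18404 genes within each (threshold 0.05). The named genes are the 10 members in every contrast, MITF and DUSP6, up to 3 genes with the largest called change per list and contrast, and the 3 genes most correlated with each of the 3 members of widest range. From those list genes the text gives mainly ones whose call held without each array in turn. Lists were other BCL2 family genes, apoptosome and caspases, inhibitors of apoptosis, death receptor pathway, regulators of BCL2 family genes, and turnover and binding of BCL2 family proteins. Some items are not reported here. Members, lists and tests were chosen with earlier results of these data known. Alternatives were other probe set rules, filters, normalizations, variance models, a replicate block, a 1.5-fold minimum and leaving out each array. Running them on the list genes too was decided after seeing the data. Motifs were matched to RefSeq promoter windows on GRCh38.p14.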

Additional observations from a re-analysis of the deposited data

Results flagged for a closer look

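The change under PLX4032 in knockdown cells minus that in scrambled cells passed limma's test for 12 of the genes looked at here. These were the members and, from each list, up to 3 genes with the largest called difference. Of the transcription factors 1 more was called, with a more negative difference, and lies outside that limit. Markers and the genes most like a member were not counted. Over all genes 11.8% were called. Among the family members the difference was -1.84 for BCL2A1, 0.82 for BCL2, 0.78 for BMF and 0.45 for BAX. BCL2A1 moved in opposite directions, -0.95 in knockdown cells and 0.88 in scrambled cells. The calls of BCL2A1 and BMF held without each array in turn, those of BCL2 and BAX did not, as given with their values above.

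Among other genes of the pathway the difference was 0.73 for JUN (adjusted p = 0.00419) and 0.61 for HTRA2, which encodes a mitochondrial protease (adjusted p = 0.00527), and both calls held without each array in turn. It was 0.55 for ATF4 (adjusted p = 0.0117), a stress transcription factor, and this call ended without knockdown DMSO array A (0.53) or scrambled PLX4032 array B (0.48). It was -0.65 for CASP9 (adjusted p = 0.0185), lost without knockdown DMSO array A (-0.60), knockdown PLX4032 array B (-0.62) or scrambled PLX4032 array A (-0.50). For BAK1 it was -0.55 (adjusted p = 0.0234), and without either knockdown DMSO array, knockdown PLX4032 array B, scrambled DMSO array A or scrambled PLX4032 array A the call was lost, at -0.59 to -0.42. For FOXO1 it was 0.58 (adjusted p = 0.03), lost at 0.44 to 0.65 without any of 6 arrays, the exceptions being knockdown PLX4032 array B and scrambled DMSO array B. For CYCS it was -0.41 (adjusted p = 0.0352), lost without any of the 8 arrays (-0.43 to -0.38). For TRADD it was -0.44 (adjusted p = 0.0474), lost at -0.51 to -0.37 without any of 7 arrays, the exception being knockdown PLX4032 array A, and it was also lost with the letter as a replicate block.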

How the results depend on the processing

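The limits are those of 2 arrays a group, 1 hairpin and 1 time, with levels on an RMA scale whose signal over background is unknown. Over all alternatives 916 member values kept direction and stayed called or not called, 55 lost the call, 26 gained it and 13 changed sign, none of these 13 called. Some alternatives in this tally could not move a member's change. Among them are the mean of all probe sets and leaving out an array of a group not compared. The calls of BMF, BCL2A1 and PMAIP1 under PLX4032 held in every alternative. Those of MCL1 were lost only to the 1.5-fold minimum, which applied to its falls under PLX4032 and its rise on knockdown under PLX4032. With every probe set tested, the differences between responses fell to 2 members and 1158 genes. In that setting 4 members and 4901 genes were called under PLX4032 in scrambled cells. On knockdown 4 members and 4359 genes were called in DMSO, and 6 members and 3933 genes under PLX4032. Also asking for 1.5-fold, 3 members and 2345 genes remained called under PLX4032 in scrambled cells, 2644 genes under PLX4032 in knockdown cells, 2 members and 1948 genes on knockdown in DMSO, 2 members and 1960 genes on knockdown under PLX4032, 5 members and 3718 genes with both perturbations, and 1389 genes for the differences. Leaving out 1 array gave 3 to 7 members and 3723 to 6377 genes on knockdown in DMSO, lowest without scrambled DMSO array B and knockdown DMSO array B in turn. For the differences between responses it gave 2 to 5 members and 1278 to 2132 genes, with 1427 without knockdown DMSO array A, 1278 without knockdown DMSO array B and 1431 without scrambled PLX4032 array A. Values near 0 changed sign: after repeated quantile normalization BCL2 under PLX4032 in scrambled cells (-0.0322), BCL2A1 on knockdown in DMSO (0.0283) and BAX with both perturbations (0.00244), and after centring on the median the same BCL2 value (-0.0168). Without single arrays that BCL2 value ran from -0.131 to 0.133, the BCL2A1 value from -0.193 to 0.0409 and the BAX value from -0.104 to 0.0298. BBC3 under PLX4032 in knockdown cells ran from -0.0406 to 0.300, BAX on knockdown under PLX4032 from -0.0171 to 0.117, and the differences between responses from -0.401 to 0.0663 for PMAIP1 and from -0.129 to 0.0318 for BID. The causes were not tested beyond what fewer arrays and more probe sets imply. Deviations of same-lettered arrays correlated at 0.329 between the knockdown PLX4032 and scrambled DMSO groups. For the other pairs of groups the correlation was -0.094 to -0.00653. With 2 arrays a group, these values cannot decide whether the letters pair the samples. With the letter as a replicate block 5, 6, 6, 8 and 8 members were called in the 5 simple comparisons and 4 for the differences. The counts of members were the same without the block. Of the other genes named, the block ended the calls of TRADD for the differences, CASP10 on knockdown in DMSO and HTRA2 with both perturbations. Each member has 1 probe set, so the mean of its probe sets was that same value and tested nothing for it.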
